A study of Mus musculus with 6 samples.

Results

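The genes of translation initiation and elongation factors, with the release factors and the enzymes and binding proteins that share their names, were followed in fetal mouse ovaries at 13.5 days post coitum (dpc). They were chosen by symbol, as the protein-coding genes of GENCODE M21 whose symbol starts with Eif1 to Eif6, Eef1 or Eef2, or is Etf1, Gspt1 or Gspt2. Of the 71 genes that meet this rule, 70 were found among the 48709 genes counted, 52 of them coding for subunits of a factor and 18 for regulators and other proteins, and 69 were abundant enough to be tested. The ovaries came from CD1 fetuses whose wild-type mothers received acetaminophen (APAP, 30 mg/kg/day) together with ibuprofen (IBU, 15 mg/kg/day) by gavage from 10.5 to 13.5 dpc, and the controls came from mothers given ethanol, the diluent. Each group had 3 libraries of polyadenylated RNA, each made from its own pool of gonads, so that the spread between libraries is the spread between pools of fetuses and not between single animals. The titles of the exposed libraries name ibuprofen alone, whereas their exposure label names both drugs.

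Translation starts when eIF1, eIF1A, eIF3 and the eIF2 complex carrying the initiator tRNA load the small ribosomal subunit, which eIF4F brings to the capped end of the mRNA. eIF5 and eIF5B complete the joining of the large subunit, eEF1 and eEF2 add the amino acids, and eRF1 with eRF3 release the finished protein. The kinases that phosphorylate eIF2α, the exchange factor eIF2B and the 4E-binding proteins set how often this cycle starts, and many genes of the machinery itself carry a pyrimidine tract at the first base of the mRNA, through which the mTOR pathway controls their translation.

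Total counts ran from 37811968 to 48954631 per library. Libraries of replicate 3 stood apart in both groups: the chi-square per degree of freedom between replicates 1 and 2 was 32.2 in controls and 19.0 after exposure, and from 63.0 to 159 between either of them and replicate 3. Summed markers of liver, 12 genes in all with none at 0, were 254, 548 and 1970 CPM (read counts scaled to a common library total) in controls 1, 2 and 3 and 194, 380 and 3195 CPM in APAP+IBU libraries 1, 2 and 3. The 12 red blood cell markers, again with none at 0, summed to 7067, 17249.9 and 10984 CPM in controls and 3194, 5445 and 10234 CPM after exposure. The 6 germ cell markers (1131 to 1496 CPM) and the 6 ovarian somatic markers (508 to 807 CPM) were present in every library. Other lists also differed between the groups: 11 of 12 spermatid markers and 4 of 6 neuronal markers had an unadjusted edgeR p under 0.05 and were lower after exposure. So were 3 of 12 red blood cell, 1 of 6 germ cell and 1 of 4 mesonephros markers, against 3.21% of all tested genes. The part of any of these cell types in the values below was not tested, and in a bulk tissue fewer cells of a type and less RNA per cell cannot be told apart.

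The starts of 6 subunit genes are shown because they carry a run of 8 or more C or T bases that covers the annotated start or comes within 2 bases of it. Each line gives 10 bases before the RefSeq start and 20 bases from it on, 5′ to 3′ on the transcribed strand, with the run in capitals (GRCm38.p6).
Eef1a1, chr9:78481705-78481734, minus strand: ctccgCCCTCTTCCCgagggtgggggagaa
Eif3f, chr7:108934405-108934434, plus strand: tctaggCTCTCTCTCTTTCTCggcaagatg
Eif3l, chr15:79075213-79075242, plus strand: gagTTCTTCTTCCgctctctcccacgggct
Eif2b5, chr16:20498807-20498836, plus strand: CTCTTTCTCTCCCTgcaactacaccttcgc
Eif2s3x, chrX:94212632-94212661, minus strand: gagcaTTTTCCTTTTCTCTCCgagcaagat
Eif2s3y, chrY:1010585-1010614, plus strand: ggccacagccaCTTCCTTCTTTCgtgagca

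The run of Eif2b5 begins upstream of the printed bases. Of the 52 members with a RefSeq start, 8 had such a run (15.38%), against 7.98% of 27025 genes. Those not shown were Eif2ak4 and Eif4enif1. For a gene with several RefSeq starts the one with the longest run was taken, from 2 for Eif2ak4 and 4 for Eif4enif1. Counted by start, 6.78% of 32851 had a run. Eef1d, Eef1g, Eif3e and Eif3h were among the members not matched to a RefSeq start. A run is a match of letters and not a measured initiation site, and since these libraries measured RNA, they say nothing of how well these mRNAs were translated. The 8 tested members with a run had a median log2 fold change of -0.28, with 6 below 0, and the 44 without one had a median of -0.09, with 30 below 0. Members with a run were also shorter, with a median exon length of 3725.5 bases against 4959.5. With length and GC content corrected for, the medians were -0.26 and -0.13. Over the tested genes with a RefSeq start the uncorrected medians were -0.02 with a run (1190 genes) and -0.01 without one (12307 genes). With the correction they were -0.03 and -0.02.

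Most factor genes had lower mean levels in exposed than in control ovaries, but no single gene passed the test. The log2 fold change (APAP+IBU minus control, edgeR) was below 0 for 49 of the 69 tested members (71.0%) and for 50.6% of all tested genes. Its median was -0.10 over the members and -0.0047 over all 20167 tested genes. The lean lay with the subunits, of which 40 of 51 were below 0 at a median of -0.17, while the regulators and other members were split 9 against 9 around a median of 0.0025. No member had an edgeR adjusted p under 0.05, nor did any gene of the table (0% of 20167), of which 1254 had an unadjusted p under 0.05. DESeq2 called 192 genes and 0 members. Member adjusted p-values ran from 0.692 to 0.990 (edgeR quasi-likelihood test, Benjamini-Hochberg over all tested genes), and a p that misses the threshold does not show that levels were alike.

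The 32 tested members that are not among the 38 named by rule ranged from -0.39 to 0.19. At an unadjusted p under 0.05, 5 members were lower (7.25%, against 3.21% of all tested genes) and none was higher (3.00% of all genes). These were Eif3f, Eif2b5, Eif1, Eef1akmt1 and Eif1b. Without control 1, control 2, APAP+IBU 1 or APAP+IBU 2 in turn, 0 members were lower and 0 were higher at that level. In that order, 674 of 20897, 701 of 20939, 642 of 20620 and 580 of 20688 genes passed it in either direction. The number of lower members was 22 of 69 without control 3, where 15.4% of all genes tested were lower. It was 15 of 69 without APAP+IBU 3, where 6.22% were. Every exposed library lay below every control library for 5 members (7.25%, against 5.92% of all genes), namely Eif2b5, Eef1akmt1, Eif1b, Eif1ax and Eif3e. For Eef1akmt2 alone every exposed library lay above every control (1.45%, against 4.78% of all genes). APAP+IBU 1 was the lowest of the 6 libraries for 34 of the 69 members, and control 1 the highest for 28.

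**Figure D1:**
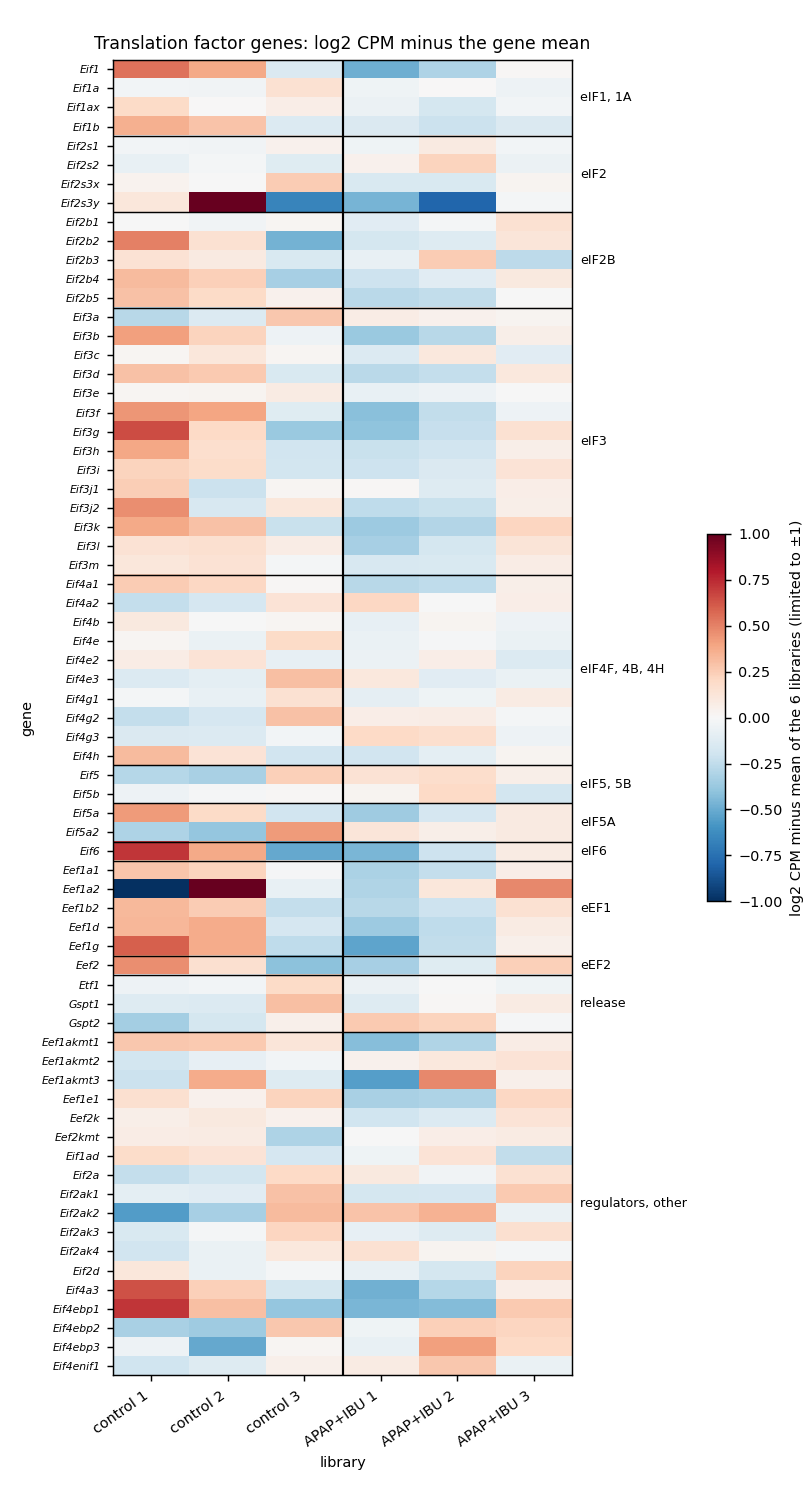
Level of each tested factor gene (rows, grouped by complex) in each library (columns), as log2 CPM minus the mean of the 6 libraries, with the colour scale limited to ±1. Controls 1 and 2 are mostly red and APAP+IBU 1 and 2 mostly blue for the eIF3 and eEF1 genes, control 3 is often blue and APAP+IBU 3 often pale red.

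The machinery took a large share of the ovarian RNA. Together the members made up 2.87%, 2.76% and 2.51% of all counts in controls 1, 2 and 3 and 2.28%, 2.33% and 2.66% in the exposed libraries. By CPM, which is not scaled to gene length, Eef1a1 had the highest value of the whole table in both groups, Eef2 ranked 7 in controls and 8 after exposure, and Eif4g2 ranked 19 and 15. The summed eEF1 genes alone spanned 10129 to 12891 CPM in controls (11776 ± 1456, SD, n = 3) and 8318 to 10951 CPM after exposure (9366 ± 1397), the 14 eIF3 genes at 3601 ± 286 and 3138 ± 278 CPM, and the summed eIF4F, eIF4B and eIF4H genes at 5071 ± 325 and 4958 ± 39.7 CPM. Control 3 lay below APAP+IBU 3 in the eEF1 and eIF3 sums, so the groups overlapped there.

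All 4 genes of eIF1 and eIF1A, the small factors that hold the scanning ribosome open until a start codon is met, had log2 fold changes below 0, with a median of -0.26. Values are given from here on in the order of replicates 1, 2 and 3. Eif1 (ENSMUSG00000035530, GRCm38 chr11:100319880-100322100) was measured at 238, 212 and 147 CPM in the controls and 116, 132 and 164 CPM in the exposed ovaries, so that only control 3 reached into the exposed range. Its log2 fold change was -0.53 (SE 0.21), with an unadjusted edgeR p of 0.0323. The paralogue Eif1b stood at 67.9, 64.8 and 48.3 CPM in control pools against 48.0, 45.6 and 48.0 CPM in APAP+IBU pools. The exposed pools of Eif1b were close to each other and to control 3, which lay just above them, and the log2 fold change was -0.35 (SE 0.15), or -0.089 with length and GC content corrected for. Without control 3 both were called, Eif1 at -0.71 (edgeR adjusted p = 0.0471) and Eif1b at -0.49 (edgeR adjusted p = 0.0429). In that fit 3 of 69 tested members and 1064 of all 20634 tested genes were called, a lower share of the members than of all genes. Leaving out any other single library called 0 members and 0 genes. The X-linked eIF1A gene Eif1ax, at 143, 125 and 131 CPM without the drugs and 119.6, 111 and 122 CPM with them, also did not overlap between the groups and had a log2 fold change of -0.18 (SE 0.11). Its autosomal counterpart Eif1a was nearly level in 5 pools, at 66.8, 66.5 and 75.8 CPM in the controls and 66.2, 68.3 and 65.6 CPM in the exposed ovaries, control 3 being the high one. Of the 50-base stretches of Eif1 exons, 31.6% also occur in exons of other annotated genes, so that its counts are less certain, and 12.7% of the exon length of Eif1b is shared with an antisense RNA, D830035M03Rik, whose reads cannot be told apart unless the counting used the strand.

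The 3 subunits of eIF2, which brings the initiator tRNA, lay on both sides of 0. The α and β subunit genes Eif2s1 and Eif2s2 had log2 fold changes of 0.02 and 0.14, or -0.22 and -0.20 with gene length and GC content corrected for, where all 4 eIF2 genes lay below 0. The γ subunit has an X-linked gene, Eif2s3x, at 270.1, 263 and 315 CPM in the controls and 238, 238 and 269 CPM in the exposed ovaries, with a log2 fold change of -0.19 (SE 0.13). Its Y-linked copy Eif2s3y had the lowest fold change of all members, -1.20 (SE 0.62), from 36, 115 and 24 reads in controls and 32, 23 and 33 reads in exposed ovaries. Control 2 was apart at 3.08 CPM, while the other 5 libraries lay between 0.502 and 0.944 CPM and overlapped, and without it the log2 fold change was -0.17. The 4 Y-linked genes Ddx3y, Uty, Kdm5d and Eif2s3y together were at 2.68, 9.37 and 2.26 CPM in controls and 2.86, 2.64 and 2.79 CPM in exposed ovaries, again with control 2 apart. Per kilobase of exon Eif2s3y reached 0.32%, 1.07% and 0.161% of Eif2s3x in controls and 0.243%, 0.193% and 0.293% after exposure.

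The guanine nucleotide exchange factor eIF2B, which recycles eIF2 and is the point at which eIF2α phosphorylation acts, had 4 of its 5 subunit genes below 0 and a median of -0.17, which was -0.0048 with length and GC content corrected for. The one with the smallest p was Eif2b5 (ENSMUSG00000003235, GRCm38 chr16:20498817-20509323), the catalytic ε subunit. It was at 159.8, 148 and 134 CPM in control pools against 108, 109.7 and 129.6 CPM in APAP+IBU pools, without overlap, and its means were 147 ± 13.0 CPM (SD, n = 3) against 116 ± 11.9 CPM (SD, n = 3). The log2 fold change was -0.35 (SE 0.13), with an unadjusted edgeR p of 0.028. Eif2b1 to Eif2b4 ranged from -0.17 to 0.02. Eif2b2 shows the reversal of replicate 3 most clearly among them, at 45.2, 35.4 and 22.9 CPM in the controls and 28.2, 29.0 and 34.6 CPM in the exposed ovaries, where control 3 was the lowest pool of all.

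eIF3, the largest initiation factor and the scaffold on which the others meet on the small subunit, leaned to 1 side: 13 of its 14 genes had log2 fold changes below 0, with a median of -0.25 and a range from -0.49 to 0.08. Eif3f (ENSMUSG00000031029, GRCm38 chr7:108934420-108942950), the subunit with the smallest p, was at 353, 344 and 239 CPM without the drugs and 195, 220.2 and 252 CPM with them. Both high controls lay above all exposed pools, control 3 lay between APAP+IBU 2 and 3, and the log2 fold change was -0.49 (SE 0.18), with an unadjusted edgeR p of 0.028. Without control 3 it was called, at -0.65 (edgeR adjusted p = 0.0440), in the fit that called 1064 of all 20634 tested genes. No fit that left out another single library called any gene. Eif3e, at 241, 242 and 252 CPM in the controls and 226, 229.8 and 237 CPM in the exposed ovaries, did not overlap between the groups although its log2 fold change was only -0.08 (SE 0.11). With length and GC content corrected for it was -0.52, at an unadjusted edgeR p of 0.0241. The exception in direction was Eif3a, the largest subunit, at 388, 429 and 567 CPM in control pools against 496, 485 and 479.7 CPM in APAP+IBU pools, with a log2 fold change of 0.08 (SE 0.16), or -0.08 with length and GC content corrected for, where all 14 lay below 0. Eif3g, which contacts mRNA, varied widely between control pools, at 259, 189.6 and 127 CPM in the controls and 125, 140.4 and 184 CPM in the exposed ovaries. Eif3j1 and Eif3j2, near-identical genes for the loosely bound j subunit, had log2 fold changes of -0.04 (SE 0.16) and -0.29 (SE 0.20). Their levels were 36.7, 26.6 and 31.4 CPM without the drugs and 31.2, 28.3 and 32.3 CPM with them for Eif3j1, with control 1 high and control 2 low. Eif3j2 was at 26.8, 17.4 and 21.01 CPM in control pools against 16.3, 16.7 and 20.3 CPM in APAP+IBU pools, with controls 1 and 3 above all exposed pools. As 91.8% of the 50-base stretches of Eif3j2 also occur elsewhere, chiefly in Eif3j1, the split of reads between them is uncertain, and the antisense RNA Gm17638 covers 43.3% of the exon length of Eif3d.

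The cap-binding complex eIF4F with its helpers eIF4B and eIF4H showed both directions, 7 genes below 0 and 3 above among 10 tested, with a median of -0.07. The helicase eIF4A is made from a pair of genes that went opposite ways. Eif4a1, the form of growing cells, stood at 757, 732 and 639 CPM in the controls and 523, 531 and 660.2 CPM in the exposed ovaries, with control 3 just below APAP+IBU 3, and had a log2 fold change of -0.31 (SE 0.15). Eif4a2 stood at 477, 499 and 616 CPM in control pools against 649.7, 559.9 and 588 CPM in APAP+IBU pools, with control 3 above all exposed pools but APAP+IBU 1, and had a log2 fold change of 0.18 (SE 0.15), or -0.07 once gene length and GC content were corrected for.

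The cap-binding protein gene Eif4e was measured at 165, 155 and 186 CPM without the drugs and 155, 162 and 156 CPM with them, flat but for control 3, with a log2 fold change of -0.10 (SE 0.12). Eif4e2, whose protein binds the cap but not eIF4G and represses translation, was at 160.1, 167 and 143 CPM in the controls and 146, 159 and 138 CPM in the exposed ovaries and overlapped fully. Eif4e3 was about as even, at 12.8, 13.2 and 17.4 CPM in control pools against 15.2, 13.0 and 13.5 CPM in APAP+IBU pools, with control 3 the highest. Eif4e1b, the oocyte form, was practically not detected at this stage, with 1, 1 and 2 reads in controls and 0, 1 and 1 reads after exposure, all under 3 reads in a library, and it was left out of the test. Per kilobase, the control levels were 28.0 ± 2.60 CPM for Eif4e, 20.9 ± 1.62 CPM for Eif4e2 and 5.75 ± 1.02 CPM for Eif4e3 (SD, n = 3), each apart from the next by more than their SDs. With the longest transcript as the length, Eif4e and Eif4e2 stood at 33.7 and 45.1 CPM per kilobase, so their order depends on that choice.

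Among the scaffold genes, Eif4g2, whose product lacks the eIF4E-binding region of the other two, was the most abundant by far, at 1353, 1423 and 1955 CPM in the controls and 1668, 1679.6 and 1571 CPM in the exposed ovaries. Control 3 was the highest pool and controls 1 and 2 the lowest, and the log2 fold change was 0.06 (SE 0.17). Eif4g1 was at 558, 539 and 631 CPM without the drugs and 532, 549 and 598 CPM with them, with a log2 fold change of -0.04 (SE 0.13). Eif4g3 was at 145, 146 and 156 CPM in control pools against 183, 179 and 154 CPM in APAP+IBU pools, with controls 1 and 2 below all exposed pools and control 3 between them, and had a log2 fold change of 0.21 (SE 0.12), the highest of the complex.

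Eif5, the GTPase-activating protein for eIF2, was among the members that lay higher after exposure. It was measured at 337, 329 and 486 CPM in the controls and 455, 465 and 429.6 CPM in the exposed ovaries, with controls 1 and 2 far below the exposed pools and control 3 above them, and its log2 fold change was 0.23 (SE 0.17). Eif5b, the subunit-joining GTPase, had a log2 fold change of 0.04 (SE 0.13). Eif5a, which carries hypusine and helps the ribosome past difficult peptide bonds, was at 713, 606 and 465 CPM in control pools against 415, 472 and 564 CPM in APAP+IBU pools. Its log2 fold change was -0.30 (SE 0.19), and control 3 lay within the exposed range. Eif5a2, its rarer paralogue, was at 23.6, 22.4 and 39.1 CPM without the drugs and 31.7, 30.5 and 31.1 CPM with them, the exposed pools lying between controls 1 and 2 below and control 3 above, with a log2 fold change of 0.13 (SE 0.22). Eif6, which keeps free large subunits apart from small ones and acts in their assembly, varied more than 2-fold between controls, at 135, 107 and 57.5 CPM in the controls and 59.9, 71.1 and 87.0 CPM in the exposed ovaries. Control 3 was the lowest of all pools, and the log2 fold change was -0.46 (SE 0.29).

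All 5 genes of eEF1, which delivers aminoacyl-tRNA to the ribosome, had log2 fold changes below 0, with a median of -0.36, and all overlapped between the groups. Eef1a1 (ENSMUSG00000037742, GRCm38 chr9:78478449-78489151), the GTPase itself, was at 10717, 10320.0 and 8781 CPM in control pools against 7114, 7479 and 9257 CPM in APAP+IBU pools. Control 3 lay below APAP+IBU 3 and above the other two exposed pools, and the log2 fold change was -0.32 (SE 0.17). Eef1g, a subunit of the exchange factor and the eEF1 gene with the smallest p, was at 1084, 928 and 601 CPM in the controls and 498, 603 and 743 CPM in the exposed ovaries, with a log2 fold change of -0.50 (SE 0.24) and an unadjusted edgeR p of 0.0715. The exchange factor genes Eef1b2 and Eef1d had log2 fold changes of -0.23 (SE 0.19) and -0.36 (SE 0.19). Eef1a2, the form of muscle and neurons, was nearly absent, with 2, 36 and 10 reads in controls and 10, 12 and 13 reads in exposed ovaries, and its log2 fold change of -0.64 (SE 0.84) became 0.86 without control 2. Other annotated genes share 59.2% of the 50-base stretches of Eef1a1 and 64.3% of those of Eef1g.

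Eef2, the translocase of elongation, overlapped between the groups, at 3740.1, 3035 and 2046 CPM without the drugs and 2156, 2502 and 3198 CPM with them, with control 3 lowest and control 1 highest. Its log2 fold change was -0.17 (SE 0.25). Of the release factors, Etf1 (eRF1) had a log2 fold change of -0.08 (SE 0.12). The eRF3 gene Gspt1 was at 168, 167 and 226 CPM in the controls and 168, 185 and 194 CPM in the exposed ovaries, with control 3 highest and a log2 fold change of -0.04 (SE 0.15). The X-linked eRF3 gene Gspt2 was at 11.6, 13.0 and 15.2 CPM in control pools against 17.6, 17.1 and 14.5 CPM in APAP+IBU pools, where 2 exposed pools exceeded all controls, and its log2 fold change of 0.31 (SE 0.17) was the highest of any subunit gene.

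**Figure D2:**
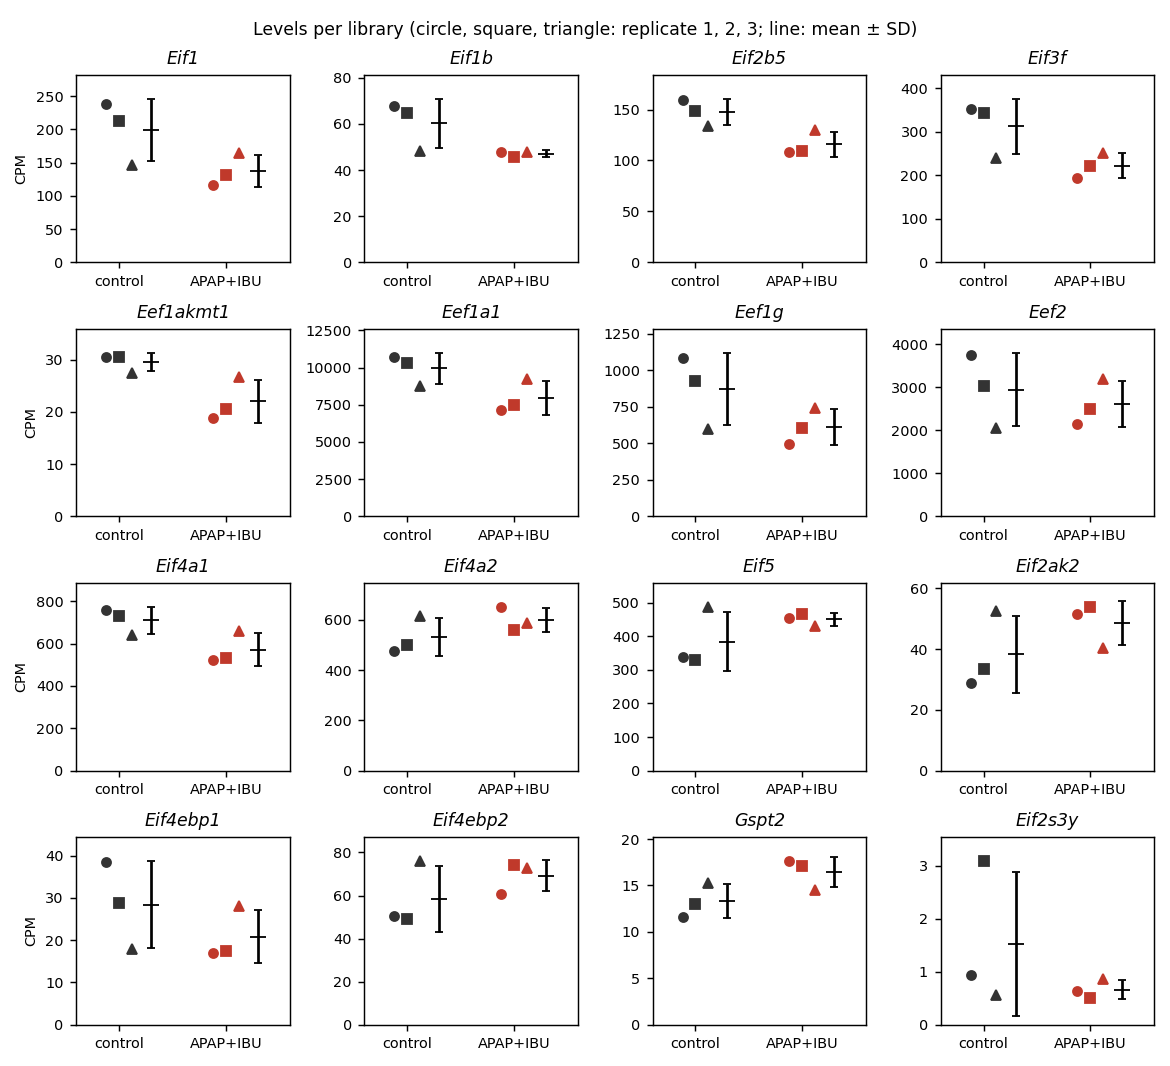
Level in CPM (linear axes from 0) of 16 members in each library, with replicates as a circle, a square and a triangle and the mean ± SD of the 3 libraries beside them. Replicate 3 (triangle) often lies towards the other group, as for Eef2, where control 3 is lowest and APAP+IBU 3 is the second highest pool.

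The 18 regulators and other members had no common direction. The 4 kinases of eIF2α, which slow initiation in response to haem shortage (Eif2ak1), double-stranded RNA (Eif2ak2), misfolded protein in the endoplasmic reticulum (Eif2ak3) or lack of amino acids (Eif2ak4), had log2 fold changes from -0.05 to 0.34. Eif2ak2 was at 28.7, 33.5 and 52.5 CPM in the controls and 51.4, 53.7 and 40.3 CPM in the exposed ovaries, controls 1 and 2 lying below all exposed pools and control 3 among the highest, with a log2 fold change of 0.34 (SE 0.24). Eif2ak1 was at 70.0, 69.2 and 91.6 CPM without the drugs and 66.3, 66.6 and 89.7 CPM with them, where replicate 3 of both groups was high. Eif2ak3 was at 31.3, 34.2 and 40.3 CPM in control pools against 32.8, 31.7 and 38.8 CPM in APAP+IBU pools, with the same pools high. Eif2ak4 was at 43.5, 47.4 and 53.4 CPM in the controls and 55.3, 50.6 and 49.2 CPM in the exposed ovaries, and its log2 fold change was 0.10 (SE 0.13).

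The 4E-binding proteins, which hold eIF4E until mTOR phosphorylates them, lay on both sides of 0. Eif4ebp1 was at 38.4, 28.8 and 17.9 CPM in control pools against 17.03, 17.3 and 28.0 CPM in APAP+IBU pools, with a log2 fold change of -0.45 (SE 0.31). Eif4ebp2 was at 50.3, 49.1 and 75.8 CPM in the controls and 60.9, 74.0 and 72.9 CPM in the exposed ovaries, with a log2 fold change of 0.25 (SE 0.19). The groups overlapped for both, control 3 lying between APAP+IBU 2 and 3 for Eif4ebp1 and above all pools for Eif4ebp2. Eif4ebp3 was at 0.918, 0.669 and 0.967 CPM without the drugs and 0.907, 1.27 and 1.09 CPM with them, close to 1 CPM everywhere, and shares 67.3% of its exon length with AC115631.1 on the same strand. Eef1akmt1, a lysine methyltransferase of eEF1A, was the member outside the subunits with the smallest p, at 30.6, 30.4 and 27.5 CPM in control pools against 18.9, 20.6 and 26.7 CPM in APAP+IBU pools. No pools overlapped for it, and the log2 fold change was -0.42 (SE 0.17), with an unadjusted edgeR p of 0.0367. Eif4a3, a helicase of the exon junction complex and not of eIF4F, had a log2 fold change of -0.49 (SE 0.23). Eef1akmt2, the only member whose exposed pools all exceeded the controls, was at 17.7, 19.0 and 19.7 CPM in the controls and 20.6, 21.6 and 22.1 CPM in the exposed ovaries, with a log2 fold change of 0.19 (SE 0.14).

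**Figure D3:**
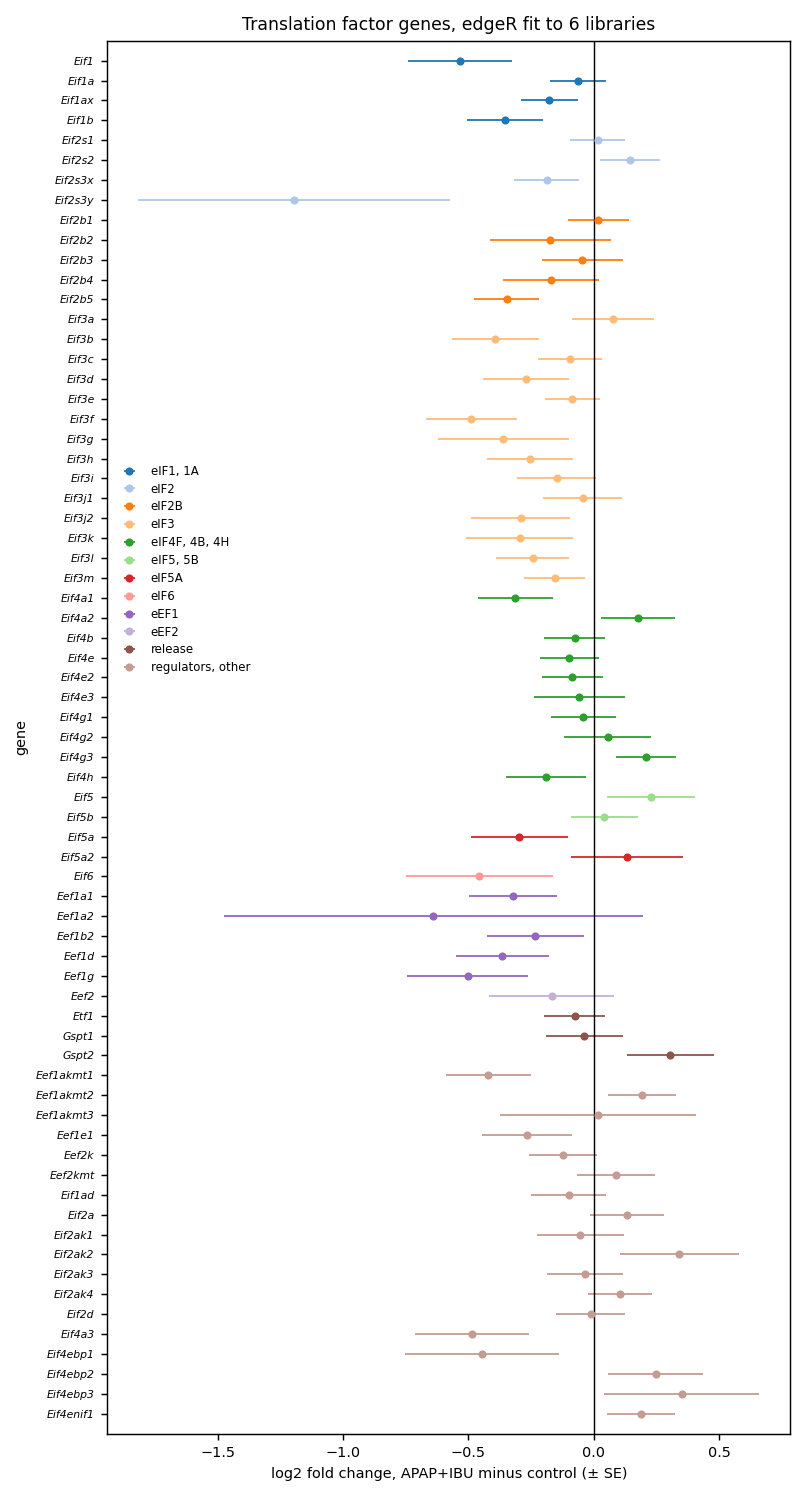
Log2 fold change (APAP+IBU minus control, edgeR fit to 6 libraries) of each tested member with its standard error, coloured by complex. All eIF1, eIF1A and eEF1 genes lie left of 0 and eIF3 all but Eif3a, the widest bars belong to Eef1a2 and Eif2s3y, and no member had an adjusted p under 0.05.

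Ratios of paralogues within a library compare forms of the same factor without a scaling between libraries. They were not corrected for length and GC content in each library, in which partners can differ. Eif4a2 has 5338 exon bases and 40.2% GC, and Eif4a1 has 4334 and 46.3%. Reads per exon base of Eif4a2 were 51.2%, 55.3% and 78.3% of those of Eif4a1 in controls and 100.9%, 85.7% and 72.3% in exposed ovaries, or 61.6 ± 14.6% against 86.3 ± 14.3% (SD, n = 3). The groups overlapped through replicate 3 of both, and the exact permutation test, two-sided, gave p = 0.2. Gspt2 ran at 10.3 ± 0.787% of Gspt1 in controls and 13.1 ± 2.15% after exposure (exact permutation p = 0.2). Eif5a2 was a minor form at 2.43 ± 1.35% and 3.09 ± 0.504% of Eif5a, and Eef1a2 was at 0.0050 ± 0.0055% and 0.0040 ± 0.00057% of Eef1a1.

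The reverse held for Eif4g2, which exceeded Eif4g1 in every library at 195 ± 24.7% and 211 ± 19.8%. Of 13 ratios tested, only Eif3j2 to Eif3j1 did not overlap, at 168 ± 9.97% in controls and 142 ± 13.0% in exposed ovaries. Its exact permutation p was 0.1, the smallest that 3 against 3 libraries can give, and 0.65 after Benjamini-Hochberg adjustment over the 13. That pair is also the one whose reads can least be assigned. The other 12 ratios had exact permutation p-values from 0.2 to 0.9.

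**Figure D4:**
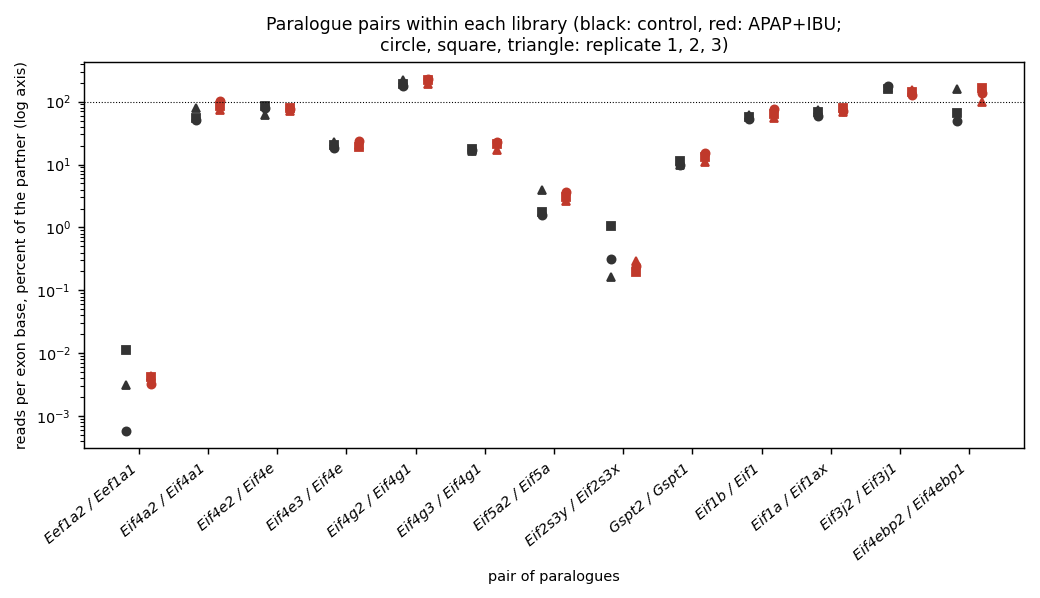
Reads per exon base of the first gene of each pair as a percentage of the second, in each library (log axis; black, control; red, APAP+IBU; circle, square and triangle, replicates 1, 2 and 3; dotted line, 100%). Eif4g2 and Eif3j2 lie above their partners in all libraries, Eef1a2 lies about 4 orders of magnitude below Eef1a1, and the groups are apart only for Eif3j2.

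Because replicate 3 of each group stood apart, the comparison was also made with replicates 1 and 2 alone, a choice made with these differences known. There 26 of the 69 members were lower at an edgeR adjusted p under 0.05 (37.7%, against 12.9% of all 20633 genes tested) and 7 were higher (10.1%, against 14.2%). The lower ones included 8 of 14 eIF3 genes, 4 of 5 eEF1 genes, 3 of 5 eIF2B genes, and Eif1, Eif1b, Eif5a, Eif6 and Eef2. In this fit Eif1 fell by 0.84 on the log2 scale (edgeR adjusted p = 0.00623), Eif3f by 0.73 (edgeR adjusted p = 0.00632), Eef1g by 0.85 (edgeR adjusted p = 0.00684) and Eef1a1 by 0.51 (edgeR adjusted p = 0.0135). The 7 higher ones were Eif5, Eif4g3, Eif5a2, Gspt2, Eif2ak2, Eif4ebp2 and Eif4enif1. Eif5 rose by 0.49 (edgeR adjusted p = 0.0100) and Eif2ak2 by 0.78 (edgeR adjusted p = 0.00683). With 2 pools per group these calls rest on the closeness of the first 2 pools, and replicate 3 went against them for most members. Judged by log2 CPM, control 3 lay nearer to the mean of APAP+IBU 1 and 2 than to that of controls 1 and 2 for 47 of 69 members, and APAP+IBU 3 lay nearer to controls 1 and 2 for 44.

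The members' differences went with the length of the gene. Short members had lower fold changes than long ones: across the 69 genes log2 exon length and log2 fold change had a Pearson r of 0.38 and a Spearman rho of 0.52, against 0.19 and 0.28 over 20103 tested genes, a description across genes that share the same 6 libraries. For GC content the values were -0.22 and -0.33 over the members and -0.24 and -0.35 over all tested genes. Split at their median length of 3781 bases, the 35 shorter members had a median log2 fold change of -0.25, with 29 below 0, and the 34 longer ones a median of -0.04, with 20 below 0. The shorter members deviated from their gene means by a median of 0.30, 0.19 and -0.13 (log2) in controls 1, 2 and 3 and by -0.28, -0.18 and 0.07 in the exposed libraries, whereas for the longer ones these medians stayed between -0.06 and 0.08. The cause of this pattern was not tested.

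With length and GC content corrected for in each library, the members lay further below 0, at a median of -0.16 with 56 of 69 negative, against -0.02 for all genes. None was called in the edgeR fit (lowest adjusted p = 0.511), 13 of 69 had an unadjusted p under 0.05 and were lower, against 5.55% of all genes, and 0 were higher, against 3.85%. Those 13 came from eIF1 and eIF1A (3), eIF3 (4), eIF2 (2), eIF4F (2), eIF2B (1) and the regulators (1). Eif5, Eif4g2, Eif4a2 and Eif5a2 then had log2 fold changes of 0.03, -0.15, -0.07 and -0.13, so that only Eif5 of these kept its sign. In all, 9 members changed sign. In replicates 1 and 2 with the same correction, 25 members were lower (36.2%, against 8.25% of all genes) and 2 higher (2.90%, against 5.66%) at an edgeR adjusted p under 0.05. None of the 5 eIF2B genes was called there, and Eif1b, at -0.029 (edgeR adjusted p = 0.866), was not called either, whereas Eif3e fell by 0.82 (edgeR adjusted p = 0.0109). Of these 27, 18 were also among the 33 called without the correction (66.7% and 54.5%), all with the same sign. They included Eif1, Eif3b, Eif3d, Eif3f, Eif3i, Eif3k, Eif3l, Eef1a1, Eef1b2, Eef1d, Eef1g, Eif4a1, Eif6 and Eif2ak2. The fits with and without the correction used the same libraries, replicates 1 and 2, so this overlap is not independent support. With all 6 libraries, 0 members were called with or without the correction.

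**Figure D5:**
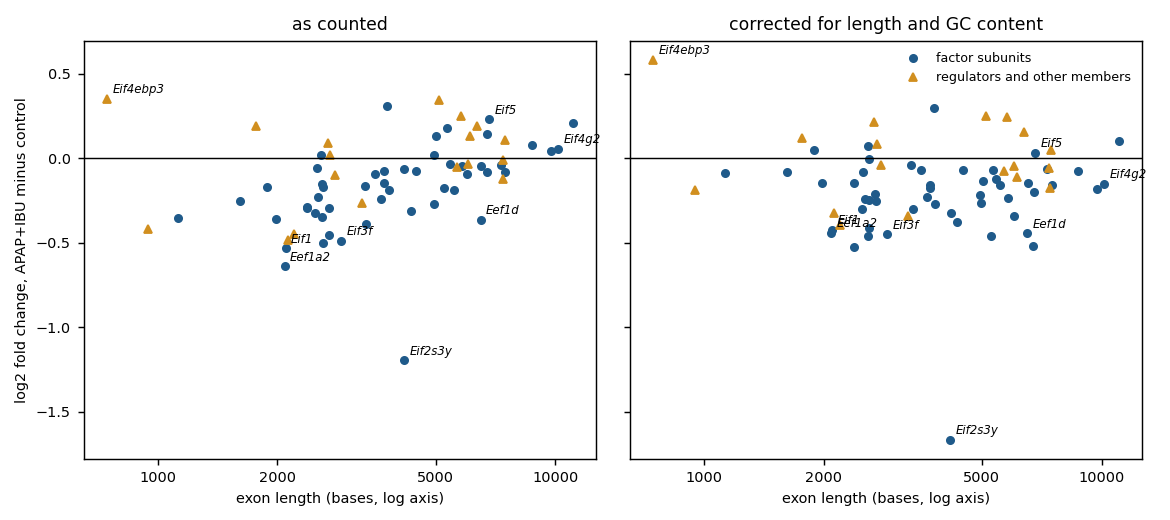
Log2 fold change of each tested member against its exon length in bases (log axis), as counted (left) and with gene length and GC content corrected for (right). On the left the short genes lie lower than the long ones, with medians of -0.25 and -0.04, and on the right most members of any length lie below 0.

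Genes that control the same machinery but carry other names were spread about evenly around 0. Of 35 genes listed, among them mTOR and its partners, the S6 kinases, the MNK kinases, poly(A)-binding proteins, recycling factors and targets of ATF4, 34 were matched and tested. Their median log2 fold change was -0.02, with 19 below 0. At an unadjusted edgeR p under 0.05, 0 of the 34 were lower and 2 higher, against 3.21% and 3.00% of all tested genes. Mknk1, a kinase of eIF4E, was at 29.9, 30.7 and 35.1 CPM in the controls and 40.6, 44.5 and 38.8 CPM in the exposed ovaries, without overlap, and its log2 fold change was 0.37 (SE 0.13). Rps6kb1, which phosphorylates ribosomal protein S6 and eIF4B, was at 47.6, 54.5 and 76.4 CPM in control pools against 89.6, 86.3 and 70.1 CPM in APAP+IBU pools, with a log2 fold change of 0.46 (SE 0.19) and control 3 inside the exposed range. Every exposed library lay below every control library for 2 of the 34, Hbs1l and Paip2, and above for Mknk1 alone. The shares over all tested genes were 5.92% below and 4.78% above. The lowest edgeR adjusted p of the 34 was 0.692.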

How the data were processed

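Polyadenylated RNA was sequenced from 6 pools of 13.5 dpc ovaries, 3 control and 3 exposed to APAP+IBU. By the study's methods and the submitters' processing notes, the authors prepared stranded polyadenylated libraries, converted reads with bcl2fastq 2.17.1.14, mapped them to mm10 with TopHat2 2.0.14 and Bowtie2 2.1.0, counted them per Ensembl gene with HTSeq 0.6.1 and deposited raw counts with no normalisation. The strand setting of the counting is not given in the sources used here.

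The counts were tested with the edgeR 4.0.16 quasi-likelihood test (R 4.3.3, TMM, the edgeR expression filter, Benjamini-Hochberg over 20167 genes, no block, all 6 libraries). Levels are CPM with TMM, and levels of different genes were compared per kilobase of merged exons. Log2 CPM used a prior count of 1 in the length and GC correction and in the correlations between libraries, and no prior count elsewhere. The fit was tested on simulated data without the replicate 3 shift or the length dependence seen here, so that test does not cover them. Symbols, positions and lengths came from GENCODE M21 on GRCm38, the assembly of mm10, a later annotation than the authors' one. Length and GC were corrected by loess (span 0.3) in each library. Start windows came from RefSeq and were matched by symbol.

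Members and lists were chosen with earlier results of these data known. Named by rule were the tested member with the smallest unadjusted p in each complex, all paralogue sets, and any member with an adjusted p under 0.05, which gave 38 genes. Other members are named where a count or a pattern turned on them and were chosen after their values were seen. Alternatives were other normalisations and filters, DESeq2 1.42.0, a block for the replicate number, the correction for length and GC, leaving out each library and replicate 3 of both groups, and transcript length. Paralogue ratios, shared 50-base stretches and pyrimidine runs were chosen after seeing the data. Deviations of libraries with the same number correlated at -0.07, -0.02 and -0.04 across genes and at -0.14, -0.14 and -0.60 across the members, with no pair over 0.1, so the numbers were not taken to pair the pools.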

Additional observations from a re-analysis of the deposited data

How the results depend on the processing

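Of 591 values of the 37 named and tested members under alternatives, 523 kept their direction and their side of the threshold, 38 passed it in the same direction and 30 changed sign, in 13 members. The genes called over the whole table, 0 as reported, were 192 with DESeq2, 120 with all genes of at least 1 count, 2 with the replicate block, 39 with the block and the length and GC correction, 5607 in replicates 1 and 2 and 2860 there with the correction, which was added after seeing the data, and 0 to 1064 on leaving out 1 library, the 1064 without control 3. The members called, 0 as reported, were 33, 27 with the correction, and 0 to 3. The members lower at an unadjusted p, 5 as reported, were 8 with upper quartile scaling, 0 with the replicate block, 13 with the correction, 3 with both, 28 in replicates 1 and 2, 34 there with the correction, and 0 to 22 on leaving out 1 library. The higher ones, 0 as reported, were 11, 5 and 0 to 7 in the last 3 settings. Over all genes, in both directions together, the number was 1254 of 20167 as reported, 648 of them lower and 606 higher. Such pooled numbers are not like for like with the members' counts of a single direction. It was 1235 with upper quartile scaling, 681 with the replicate block, 1888 with the correction and 1303 with both. In replicates 1 and 2 it was 8451 of 20633, or 6349 of 20567 with the correction. On leaving out 1 library it was 580 to 6294. The members' median of -0.10 was -0.24 in replicates 1 and 2 with the correction and -0.16 to -0.085 on leaving out 1 library. The replicate block changed no call of a member at an adjusted p.

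Among the named members, signs turned in replicates 1 and 2 for Eif1a (0.034), Eif4e (0.0066), Eif4e3 (0.14) and Gspt1 (0.095), and there with the correction for Eif4e3 (0.039), Eif4a2 (-0.16), Eif4g2 (-0.18) and Eif5a2 (-0.12). With the correction over 6 libraries 9 members turned, the 6 not named by rule being Eif2s1 (-0.22), Eif2s2 (-0.20), Eif2b2 (0.047), Eif3a (-0.077), Eif5b (-0.18) and Eif2a (-0.11) and the others Eif4a2 (-0.069), Eif4g2 (-0.15) and Eif5a2 (-0.13), and with the replicate block added the last 3 were -0.070, -0.15 and -0.13. Leaving out 1 library turned Eef1a2 (-1.16 to 0.86), Eef2 (-0.37 to 0.043), Eif1a (-0.095 to 0.0021), Eif3j1 (-0.15 to 0.076), Eif4e3 (-0.14 to 0.098), Eif4g1 (-0.12 to 0.029), Eif4g2 (-0.044 to 0.24), Eif5a2 (-0.012 to 0.44), Eif2ak1 (-0.24 to 0.092), Eif2ak3 (-0.15 to 0.073) and Gspt1 (-0.11 to 0.12), where each range is from the lowest to the highest value. The cause was not tested. With the longest transcript as length, 21 of 38 levels per kilobase moved, by up to 2.16 times. With 3 libraries per group an exact test cannot go below 0.1. Low counts limited Eif4e1b, Eef1a2, Eif2s3y, Eif4ebp3 and Eef1akmt3, with at most 115 reads in a library.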

Other observations

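Levels per kilobase of exon in control ovaries show how unevenly the genes of 1 complex were represented in the RNA. In eIF3 they ran from 5.42 CPM per kilobase for Eif3j1 to 174 for Eif3h, with a median of 73.3 over its 14 genes. The 5 genes of eIF2B, which work as a complex of equal parts, ran from 8.92 for Eif2b3 to 56.8 for Eif2b5, with a median of 18.3, and the eIF2 genes had a median of 26.2. The cap-binding group ran from 5.75 for Eif4e3 to 171 for Eif4b among its tested genes, with a median of 77.9. The highest members were Eef1a1 at 3987 and Eef2 at 885, and the highest gene with an Eif name was Eif5a at 250.1. The 18 regulators and other members had a median of 10.4. These levels depend on the length taken for each gene.

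The members lie on 21 chromosomes. Exons of 12 members overlap those of a protein-coding gene on the opposite strand, such as Eif3j1 with Spg11 (19.0% of its exon length) and Eif5b with Rev1 (16.8%), and 3 overlap one on the same strand, Eef1d with Naprt, Eif4e3 with Gm20696 and Eif4ebp3 with AC115631.1. In 10 members more than 20% of the 50-base stretches also occur in another annotated gene.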
